A study of Mus musculus with 41 samples.

Results

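The matrix metalloproteinases (MMPs), the ADAMTS proteases, and their tissue inhibitors (TIMPs) were followed as 39 genes taken by name from the 27197 genes of a mouse RNA sequencing count table. They comprised 17 Mmp genes, 18 Adamts genes, and 4 Timp genes, and all 39 were present in the table. The libraries came from mouse malignant mesothelioma, a tumor of the lining of the chest cavity. Floxed alleles had been deleted in mice of mixed FVB, C57BL/6, and 129Ola background, 6 to 8 weeks old, that received adenovirus carrying Cre under the CMV promoter in the pleural space and cyclosporine A in the drinking water around that time. The CMV promoter is active in many cell types, so the deletion of floxed alleles was limited by the site of injection and not by the promoter. According to the paper, the Cdkn2ab mice lacked Ink4a and Ink4b from the germline, and of that locus Arf alone was conditional. The loss of Ink4a and Ink4b was therefore not limited to the site of injection.

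Lines of cells that had grown out of pieces of primary tumors were of 2 genotypes. The 3 BNC lines (JB81, JB91, and JB97) are Bap1-/-;Nf2-/-;Cdkn2ab-/-, and the 3 NC lines (JB84, JB87, and JB93) are Nf2-/-;Cdkn2ab-/-, so that both groups lack Nf2 and Cdkn2ab and the comparison concerns Bap1. The lines were grown in medium with serum, hydrocortisone, EGF, insulin, and transferrin. A further 9 libraries were made from tumor tissue (B1, B2, B13, B14, B19, B27, B28, B45, and a library numbered 22). Their column names do not give the genotype, which is BNC in 5 and NC in 4 of the labelled tumor samples, so the tumors were treated as 1 condition of mixed genotype. Among BNC lines, the library total over all genes was 23936922 counts for JB81, 23772111 for JB91, and 20231284 for JB97. Among NC lines it was 13685421 counts for JB84, 12377675 for JB87, and 18999233 for JB93, and the tumors ranged from 8158740 (B1) to 21851974 counts (B45). All values below are CPM, the count of a gene relative to the size of its library, scaled by edgeR's TMM method over the 15 libraries. The smallest level that 3 counts allow was 0.126 to 0.231 CPM in the lines and at most 0.861 CPM in a tumor, which covers counting error only.

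Some libraries stood apart. JB81 and JB91 differed more than 2-fold in 5 of 10511 genes with at least 100 reads, and JB84 and JB93 in 8 of 10545 genes, whereas the other pairs of lines differed in 12.9% to 34.5% of genes. The labels give them as separate samples, and they were counted so. Their differences exceeded counting noise, but repeat libraries of 1 line can do so too, so whether a pair is 1 line was not tested, and results are also given with each pair summed. Among the tumors, 24.73% of the counts of B1 fell on the ribosomal locus Gm42418, B2 held 44630 CPM summed over 4 lung epithelium genes, and B27 held 4806 CPM summed over 6 neutrophil genes. Bap1 was at 41.0, 42.0, and 37.5 CPM in JB81, JB91, and JB97 and at 56.4, 56.6, and 59.4 CPM in JB84, JB87, and JB93. These counts cover the whole gene and not the deleted exons alone, so they do not check the deletion. Nf2 was at 83.8 to 121 CPM in the 6 lines, and Cdkn2a and Cdkn2b did not exceed 0.559 CPM in any of them.

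MMPs are zinc-dependent endopeptidases that are made as inactive proenzymes and, once activated, cut collagens, elastin, proteoglycans, and other proteins outside the cell. The ADAMTS proteases are a related secreted family, of which some cut the proteoglycans aggrecan and versican and others trim the ends of procollagens so that fibrils can form. TIMPs bind the active site of these enzymes, and Timp2 also brings the proenzyme of Mmp2 to the membrane protease Mmp14, which activates it. In mesothelioma, as in other tumors, these proteins come from both the tumor cells and the fibroblasts and white blood cells around them.

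Of the Mmp members, 6 lie within 1 stretch of chromosome 9 (GRCm38, 7272514 to 7699585), with Mmp1b, Mmp1a, Mmp27, and Mmp20 between them. They are the collagenase genes Mmp13 and Mmp8, the stromelysin genes Mmp3 and Mmp10, the metalloelastase gene Mmp12, and the matrilysin gene Mmp7. Their promoters are shown because these genes reached their highest tumor values together in B27, except Mmp7. The letters TGANTCA, bound by the AP-1 dimers of Fos and Jun proteins, were searched in RefSeq promoter windows of GRCm38.p6 that run from 250 bases before to 50 after a gene's start. These letters read the same on both strands, and no other motif was searched. Windows were at hand for 25 of the 39 members, with 28 windows in all since some genes have more than 1 start, and 5 of the 28 held the letters, each in a different gene. All 5 lie in this cluster, at 35 to 63 bases before the start, and the window of Mmp8 held none. Mmp12 and Mmp7 have another window each, which held none, and the Mmp12 window with the letters belongs to a start that lies inside the annotated gene (7344381 to 7369499). Of all 32851 windows, 7.81% held the letters. A match is a description of the letters, not of binding. Below are the 80 bases before the start concerned in each of the 5 genes, all on the plus strand, with the motif in capitals.
Mmp13 (chr9:7272434-7272513): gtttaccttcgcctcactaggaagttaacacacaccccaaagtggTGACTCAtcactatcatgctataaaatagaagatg
Mmp12 (chr9:7347294-7347373): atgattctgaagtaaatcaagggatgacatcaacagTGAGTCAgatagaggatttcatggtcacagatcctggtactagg
Mmp3 (chr9:7445742-7445821): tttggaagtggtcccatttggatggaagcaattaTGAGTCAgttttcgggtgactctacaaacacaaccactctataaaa
Mmp10 (chr9:7502262-7502341): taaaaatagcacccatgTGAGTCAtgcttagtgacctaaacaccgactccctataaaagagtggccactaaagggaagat
Mmp7 (chr9:7692010-7692089): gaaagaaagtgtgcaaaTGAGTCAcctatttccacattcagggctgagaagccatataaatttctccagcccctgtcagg
The letters of Mmp13 are those of the other 4 genes as read on the opposite strand.

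In the lines, 3 of the 4 inhibitors were among the members with the highest levels per length, and the other, Timp4, was at 0.0658 CPM per kilobase. As CPM per kilobase of exon, averaged over the 6 lines, the level was 324.6 for Timp2, 100.6 for Timp1, and 68.4 for Timp3. Among the proteases it was 86.7 for Adamts1, 45.2 for Mmp14, 25.5 for Mmp23, 19.4 for Adamts5, and 14.3 for Mmp2, and these 8 genes are the 8 highest of the 39. Timp2 was above the other 7 in every line. The values of the others overlapped with those of a neighbor in this order, so their order is not settled, and it differs between genotypes. With the longest transcript as the length, the same 8 genes were the highest, but Timp3 was above Timp1. At the other end, 7 members (Mmp7, Mmp9, Mmp12, Adamts8, Adamts17, Adamts18, and Adamts19) had at most 3 counts in every line, and 3 of these, Mmp7, Adamts8, and Adamts19, had none.

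Summed over each family per kilobase, the 18 Adamts genes were at 234.6, 242.5, and 180.1 CPM per kilobase in JB81, JB91, and JB97 and at 20.7, 82.5, and 21.5 in JB84, JB87, and JB93. The 17 Mmp genes were at 137, 144, and 115 in the BNC lines and at 66.6, 126, and 71.4 in the NC lines. The 4 Timp genes were at 606.5, 629.3, and 501 in the BNC lines and at 379.4, 439.7, and 406 in the NC lines. The groups of lines did not overlap in the Adamts and Timp sums and overlapped in the Mmp sum. Adamts1 alone made up a mean of 158 CPM per kilobase of the Adamts sum in the BNC lines and 15.6 in the NC lines.

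**Figure D1:**
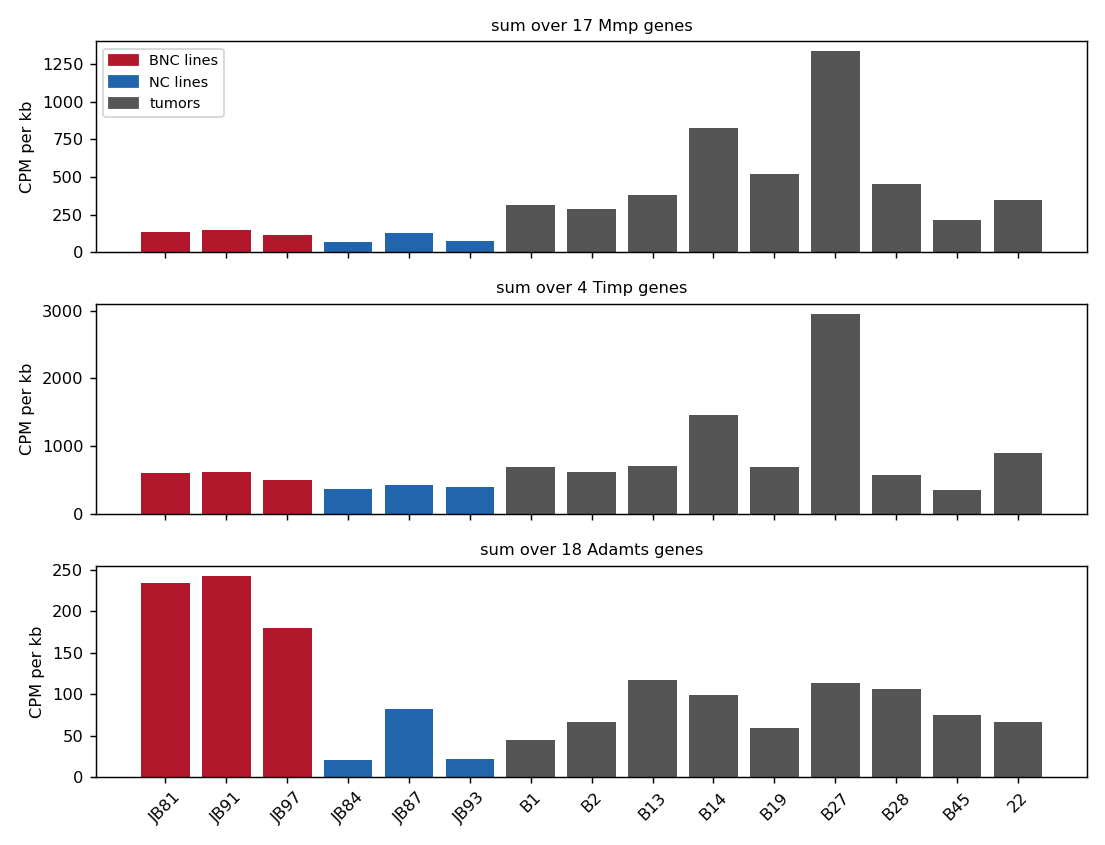
Summed level of the Mmp, Timp, and Adamts members in each of 15 libraries, in CPM per kilobase of exon on linear axes that start at 0, with BNC lines in red, NC lines in blue, and tumors in gray. The Adamts sum is highest in the 3 BNC lines, and tumor B27 has the highest Mmp sum (1337) and Timp sum (2951).

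The comparison of BNC with NC lines asks how expression differs when Bap1 is lost in addition to Nf2 and Cdkn2ab. Of the 39 members, 27 had enough reads to be tested among 12376 genes, and Mmp3 reached the level of the filter in NC lines alone. At an adjusted p under 0.01 with more than 2-fold change, edgeR's quasi-likelihood test called 0 members, where the background over all genes tested was 1.10%. The same test gave an unadjusted p under 0.05 for 15 of the 27, or 55.6% (background 35.6%). At an adjusted p under 0.05, 8 members passed, or 29.6% of the 27 against 14.2% of all genes tested. Of these, 6 rose in BNC lines (background 5.78%), namely Adamts1, Adamts3, Adamts4, Adamts14, Mmp16, and Mmp23, and 2 fell (background 8.45%), Mmp11 and Timp3. DESeq2, at adjusted p under 0.01 and more than 2-fold, called 9 members against a background of 14.9%. It called 7 as higher (background 5.88%), namely those 6 and Mmp15, and 2 as lower (background 9.03%), Mmp11 and Mmp28. Every BNC line was above or below every NC line for 19 members (background 42.0%), 14 of them higher (background 23.3%) and 5 lower (background 18.7%). Mmp3, which had to differ, is among the 5 and among the 15 above. The median log2 fold change was 0.76 over the members tested and 0.00 over all genes, with 18 of 27 members higher.

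These calls rest on lines that include the close pairs. With each pair summed into 1 library, edgeR left 0 members past an adjusted p under 0.05, and DESeq2 called Mmp16, Adamts3, and Adamts14, an alternative chosen after seeing the data. It also called Mmp3, which entered the test through the NC lines alone and so had to differ. Leaving out JB81, JB91, JB84, or JB93 left edgeR with 0 members past 0.05 and with 16, 15, 49, and 54 genes in all. Without JB87, 19 of 29 members passed beside 51.9% of all genes, and without JB97, 12 of 29 passed beside 25.4% of all genes, so the number of calls moved over the whole table. The column headers of the lines open with either of 2 numbers, whose meaning is not given in the sources used here, and each number held lines of both genotypes, with 1 BNC and 2 NC lines under the first and 2 BNC and 1 NC line under the second. The 6 higher members had log2 ratios of BNC over NC of 2.09 to 5.80 under the first number and 1.88 to 4.44 under the second. The 2 lower members had ratios of -3.40 and -0.96 under the first number and -3.48 and -0.90 under the second. These members were chosen on the same lines and their groups do not overlap, so the signs of these ratios were fixed. Each close pair also has 1 line under each number, JB81 and JB84 under the first and JB91 and JB93 under the second. The 2 sets of ratios are therefore not independent of each other. With the number as a covariate in edgeR, Mmp16 and Adamts14 alone passed an adjusted p under 0.05, beside 2.2% of all genes.

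The lines also differed in genes of other cell types. Summed over 8 mesothelial genes, of which Msln was the most abundant, JB81, JB91, and JB97 had 129, 129, and 677 CPM and JB84, JB87, and JB93 had 2822, 2152, and 2972 CPM. Msln itself was at 0.210 and 0.421 CPM in JB81 and JB91 and at 227 CPM in JB97, against 840.7 to 1987 CPM in the NC lines, so this marker of the labelled cell type is nearly absent from JB81 and JB91. Of the same list, Upk3b, Lrrn4, Pdpn, Krt8, Krt18, and Krt19 were also at 2.36 CPM or less in JB81 and JB91. Wt1 did not share this pattern. It was at 71.0 to 125 CPM in all 6 lines, with overlapping groups, and made up most of the sum in JB81 and JB91. Summed over 6 fibroblast genes, of which Col1a1 was the most abundant, the BNC lines had 5958, 6565, and 4211 CPM and the NC lines 1514, 4639, and 1677 CPM. Without Col1a1 the genes of that list did not follow this order. Col3a1 was at 83.0, 86.5, and 558.5 CPM in BNC lines and 844.4, 905.3, and 898.8 CPM in NC lines, Dcn, Pdgfra, and Thy1 overlapped between the genotypes, and Lum had at most 1 count in any line. Summed over 10 macrophage genes, JB81 and JB91 had 42.2 and 45.9 CPM, mostly Lyz2, and the other lines 6.46 to 10.4 CPM, with C1qa at 0 in every line. Summed over 5 endothelial genes, the BNC lines had 1.43, 1.56, and 7.93 CPM and the NC lines 56.7, 49.45, and 56.0 CPM. Kdr led these, and the other genes of that list were at 1.26 CPM or less in any line. Summed over 5 striated muscle genes, the BNC lines had 1.89, 2.7, and 12.1 CPM and the NC lines 66.9, 34.4, and 70.9 CPM. Tnnt2 led these, whereas Acta1 was at 0.84 to 4.27 CPM in BNC lines and 0.2485 to 0.615 CPM in NC lines. The part of these differences in the results below was not tested.

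**Figure D2:**
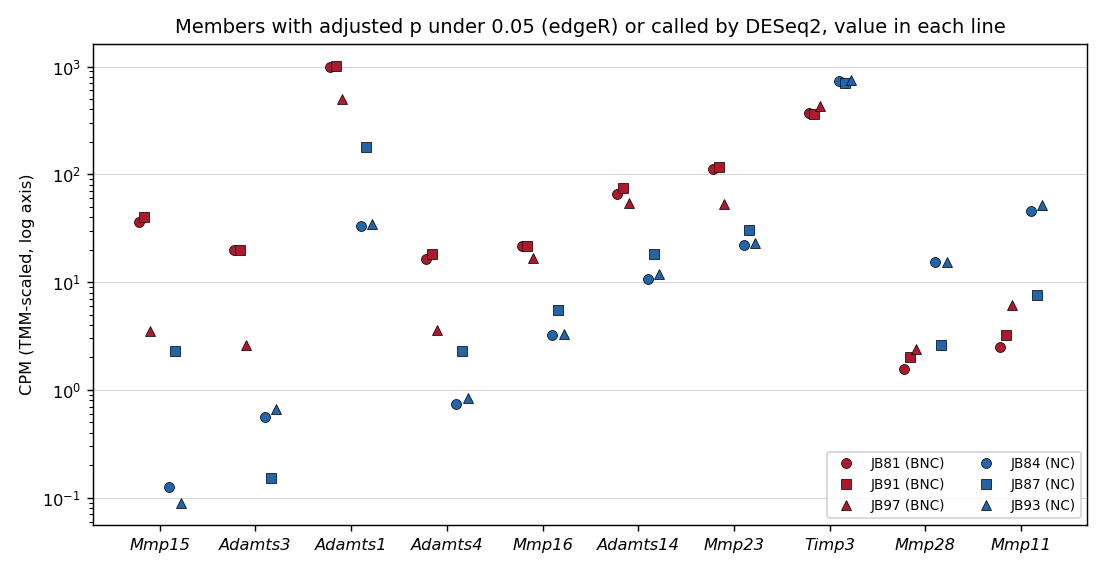
Level of 10 members in each of 6 lines, in TMM-scaled CPM on a log axis, with BNC lines in red and NC lines in blue and a marker shape for each line. The 10 are those with adjusted p under 0.05 by edgeR or called by DESeq2, ordered from the highest to the lowest log2 fold change, and in each of them the groups do not overlap.

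The 8 members past an adjusted p under 0.05 are spread over 5 chromosomes (GRCm38, whole gene). Of the Adamts genes, they are Adamts1 on chromosome 16 (85793827 to 85803113), Adamts3 on chromosome 5 (89677087 to 89883334), Adamts4 on chromosome 1 (171250421 to 171260637), and Adamts14 on chromosome 10 (61197112 to 61273438). The others are Mmp16 on chromosome 4 (17852893 to 18119145), Mmp23 on chromosome 4 (155650655 to 155653384), Mmp11 on chromosome 10 (75923222 to 75936496), and Timp3 on chromosome 10 (86300372 to 86349506). Adamts14, Mmp11, and Timp3 share chromosome 10 but not a direction.

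Among the proteases that cut proteoglycans, all 5 members tested had positive log2 fold changes (background 49.8%). Of these, 2 passed an adjusted p under 0.05 as higher (background 5.78%). Adamts1, which cuts versican and aggrecan, was at 990.2, 1015, and 502.9 CPM in JB81, JB91, and JB97 and at 33.1, 180.6, and 34.9 CPM in JB84, JB87, and JB93. The lowest BNC line, JB97, was thus above the highest NC line, JB87, and the log2 fold change was 3.29 (SE 0.80, adjusted p = 0.046, edgeR). In BNC lines it was the protease with the highest mean level per kilobase, at 158 CPM per kilobase, whereas in NC lines its 15.6 was below the 28.3 of Mmp14, the 18.9 of Mmp2, and the 17 of Adamts5. Adamts4, an aggrecanase, was at 16.5, 18.1, and 3.61 CPM in JB81, JB91, and JB97 and at 0.746, 2.31, and 0.847 CPM in JB84, JB87, and JB93. JB97 lay near JB87 and well under the other BNC lines, and the log2 fold change was 3.27 (SE 0.79, adjusted p = 0.0457, edgeR).

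The other aggrecanase of cartilage, Adamts5, is a neighbor of Adamts1 on chromosome 16 and did not follow it. It was at 105, 102, and 497.9 CPM in JB81, JB91, and JB97 and at 102, 347.7, and 99.8 CPM in JB84, JB87, and JB93. It was high in JB97 and JB87 and low in both close pairs, whatever their genotype, with a log2 fold change of 0.29 (SE 0.80, adjusted p = 0.814, edgeR). Of the rest of the group, Adamts9, a large protease related to Adamts20, was at 69.3, 71.8, and 47.2 CPM in JB81, JB91, and JB97 and at 8.14, 39.1, and 8.29 CPM in JB84, JB87, and JB93 (adjusted p = 0.127, edgeR). Adamts20 had no reads in JB84 and JB93 and was at 3.08 CPM in JB87, against 6.36 to 11.6 CPM in the BNC lines (adjusted p = 0.239, edgeR). Adamts15 and Adamts16 had 0 counts in all NC lines and were too low to be tested. At the floor of 3 counts, they were by the mean at least 2.5-fold and 3.32-fold higher in BNC lines. The bound of Adamts15 rests on JB97, with 18 counts, and was 1.26-fold without it.

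All 3 procollagen N-proteinase genes, whose products remove the amino-terminal ends of fibrillar procollagens, had positive log2 fold changes (background 49.8%). Of them, 2 passed as higher (background 5.78%). Adamts14 was at 65.8, 74.4, and 54.4 CPM in JB81, JB91, and JB97 and at 10.8, 18.3, and 11.8 CPM in JB84, JB87, and JB93. The lines were close within each group, and the log2 fold change of 2.20 (SE 0.26, adjusted p = 0.011, edgeR) had the smallest p among the members. Adamts3, which also processes the lymphatic growth factor VEGF-C, was at 19.9, 19.8, and 2.59 CPM in JB81, JB91, and JB97 and at 0.559, 0.154, and 0.669 CPM in JB84, JB87, and JB93. JB97 was between the close BNC pair and the NC lines, and the log2 fold change was 4.83 (SE 0.98, adjusted p = 0.0312, edgeR). Adamts2 was at 98.3, 111, and 164.9 CPM in the BNC lines, and at 1.55, 65.9, and 1.78 CPM in JB84, JB87, and JB93. Its groups did not overlap, but JB87 lay close to the BNC lines and the difference did not pass (log2 fold change 2.39, SE 1.43, adjusted p = 0.273, edgeR).

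Adamts7 and Adamts12, which cut the cartilage protein Comp, differed in pattern. Adamts12 was at 3.32, 3.33, and 33.0 CPM in JB81, JB91, and JB97 and at 0.124, 2.0, and 0.0892 CPM in JB84, JB87, and JB93 (adjusted p = 0.118, edgeR). Adamts7 was at 1.80 to 4.78 CPM in the 6 lines, with overlapping groups (adjusted p = 0.346, edgeR). Adamts6 and Adamts10 did not pass either, with log2 fold changes of 0.13 (SE 0.46) and -0.33 (SE 0.19) and adjusted p values of 0.854 and 0.26 from edgeR.

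Of the membrane-type MMPs, which are held at the cell surface, 4 were tested and 1 passed as higher (background 5.78%). Mmp16 was at 21.5, 21.8, and 16.7 CPM in JB81, JB91, and JB97 and at 3.23, 5.54, and 3.30 CPM in JB84, JB87, and JB93. Each BNC line had more Mmp16 than any NC line by a wide margin, and the log2 fold change was 2.26 (SE 0.30, adjusted p = 0.0132, edgeR). Mmp15 was at 36.4, 40.2, and 3.51 CPM in JB81, JB91, and JB97 and at 0.124, 2.31, and 0.0892 CPM in JB84, JB87, and JB93. JB97 was little above JB87, and the log2 fold change of 5.04 (SE 1.52) had an adjusted p = 0.0738 in edgeR and 0.000553 in DESeq2. Mmp15 lies on chromosome 8, where the 690 genes tested had a median log2 fold change of 0.41, against 0.00 over all genes. The part of that shift in the Mmp15 value was not tested.

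Mmp14, the activator of the Mmp2 proenzyme, was the membrane-type gene with the highest level per kilobase. It was at 384.2, 408, and 317.7 CPM in JB81, JB91, and JB97 and at 101, 290.9, and 115 CPM in JB84, JB87, and JB93. JB87 was close to the BNC lines, and the log2 fold change was 1.08 (SE 0.43, adjusted p = 0.132, edgeR). Mmp17 was at 4.75, 5.31, and 7.12 CPM in JB81, JB91, and JB97 and at 17.3, 4.0, and 18.4 CPM in JB84, JB87, and JB93, and its groups overlapped (adjusted p = 0.169, edgeR). Mmp24 had at most 5 counts in any line.

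The gelatinase gene Mmp2 followed neither genotype. It was at 0.714, 0.632, and 97.0 CPM in JB81, JB91, and JB97 and at 12, 166.4, and 12.8 CPM in JB84, JB87, and JB93. JB97 and JB87 were high, the pair JB84 and JB93 lay between, and the pair JB81 and JB91 was near the bottom (log2 fold change -1.04, SE 2.0, adjusted p = 0.724, edgeR). Thus the close pair with the highest Mmp14 and Timp2 had the lowest Mmp2. The other gelatinase, Mmp9, had 3, 1, and 2 counts in JB81, JB91, and JB97 and 0, 0, and 2 counts in JB84, JB87, and JB93, too few to compare.

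Of the stromelysin genes, Mmp11 passed and Mmp10 did not, and Mmp3 entered the test through the NC lines alone, so that its lower level in BNC lines is a description. Mmp11, the stromelysin that is activated inside the cell, was at 2.52, 3.20, and 6.15 CPM in JB81, JB91, and JB97 and at 45.6, 7.61, and 52.1 CPM in JB84, JB87, and JB93. JB87 was little above JB97, and the log2 fold change was -3.22 (SE 0.78, adjusted p = 0.0457, edgeR). Mmp11 shares 5.58% of its exon length with Chchd10 on the opposite strand, which was at up to 13.2 CPM in the lines. Mmp3 had 0, 0, and 2 counts in JB81, JB91, and JB97 and 12, 145, and 12 counts in JB84, JB87, and JB93. Against the mean of the NC lines, the BNC lines were at least 30.7-fold lower, a size that rests on JB87, and at least 4.74-fold lower without it. Mmp10 was at most 4.23 CPM in any line (adjusted p = 0.161, edgeR).

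The collagenase Mmp13, whose product cuts fibrillar collagen, was at 0.168, 0.295, and 4.98 CPM in JB81, JB91, and JB97 and at 25.0, 1.46, and 23.3 CPM in JB84, JB87, and JB93. JB97 was above JB87, so the groups overlapped (adjusted p = 0.182, edgeR). The other collagenase, Mmp8, had at most 16 counts in a line.

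Of the remaining MMPs, Mmp23 was at 113, 117, and 52.8 CPM in JB81, JB91, and JB97 and at 22.2, 30.8, and 23.1 CPM in JB84, JB87, and JB93. Mmp23, an MMP with a membrane anchor at its amino end, was higher in each BNC line, with a log2 fold change of 1.84 (SE 0.35, adjusted p = 0.0272, edgeR). Mmp28, which is known from epithelia, was at 1.55, 2.02, and 2.39 CPM in JB81, JB91, and JB97 and at 15.3, 2.62, and 15.5 CPM in JB84, JB87, and JB93. JB87 lay beside the BNC lines, and the log2 fold change of -2.55 (SE 0.69) had an adjusted p = 0.0585 in edgeR and 0.00206 in DESeq2. Mmp19 was at 41.9, 44.5, and 4.98 CPM in JB81, JB91, and JB97 and at 10.5, 2.38, and 11.1 CPM in JB84, JB87, and JB93, so its groups overlapped (adjusted p = 0.198, edgeR).

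All 3 inhibitors tested differed by less than 2-fold. Timp3, the TIMP that stays bound to the matrix and also inhibits ADAMTS proteases, was at 368, 364.9, and 433.4 CPM in JB81, JB91, and JB97 and at 727.5, 702.1, and 746.3 CPM in JB84, JB87, and JB93. It was lower in each BNC line, with little spread within a group, and the log2 fold change was -0.96 (SE 0.14, adjusted p = 0.0152, edgeR). This is just under a 2-fold change, which is why DESeq2 did not call it at its adjusted p of 7.14e-12. Timp3 shares 21.3% of its exon length with Syn3 on the opposite strand, which was at 0.882 CPM or less in the lines.

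Timp2 was at 1802, 1870, and 1159 CPM in JB81, JB91, and JB97 and at 830.3, 1032, and 894.2 CPM in JB84, JB87, and JB93. Its groups did not overlap, but the log2 fold change of 0.76 (SE 0.24) had an adjusted p = 0.0848 in edgeR. Timp1, which is secreted and inhibits most MMPs, was at 87.7, 92.6, and 133.6 CPM in JB81, JB91, and JB97 and at 68.3, 78.6, and 75.3 CPM in JB84, JB87, and JB93 (log2 fold change 0.44, SE 0.19, adjusted p = 0.153, edgeR). Timp4 was at 1.05 and 1.18 CPM in JB81 and JB91, and no other line exceeded 0.0508 CPM. Thus Timp3 was the inhibitor lower in all BNC lines, and Timp1 and Timp2 were above the NC lines in all of them without passing the test.

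**Figure D3:**
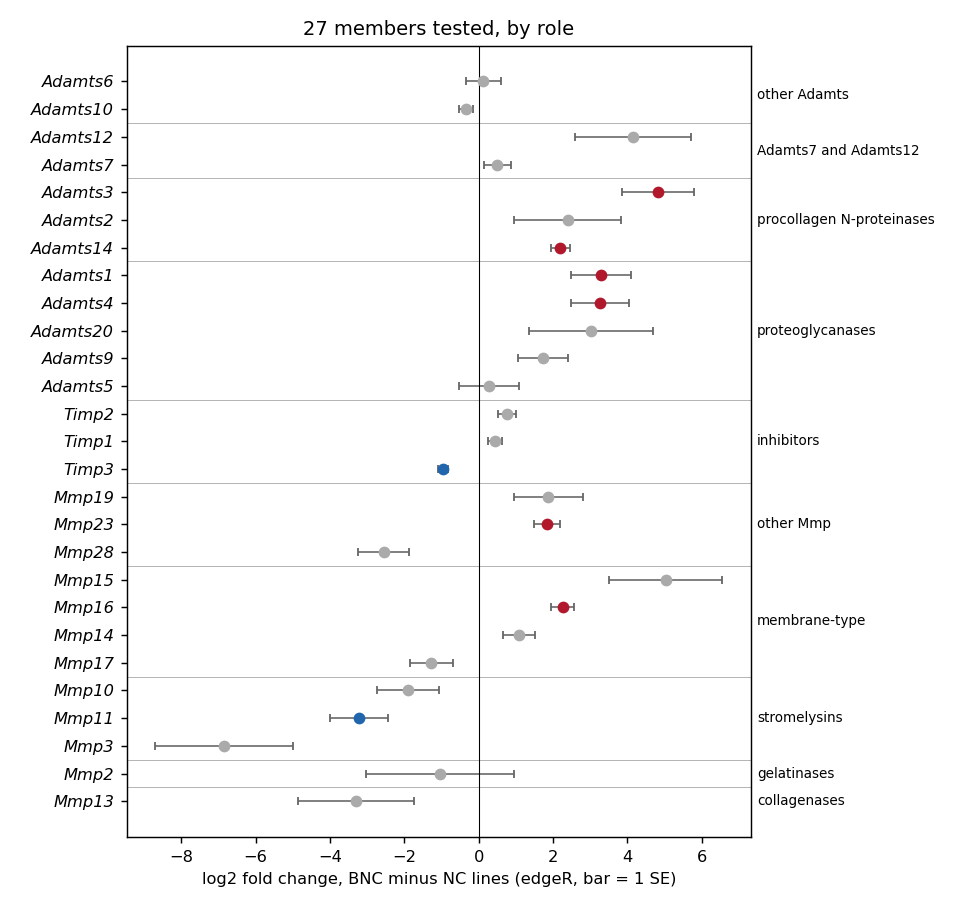
Log2 fold change of BNC over NC lines (points) with 1 SE (bars) for the 27 members tested by edgeR, grouped by role. Red points passed an adjusted p under 0.05 and rose, blue points passed and fell, and gray points did not pass. The proteoglycanases and procollagen N-proteinases lie to the right of 0, and the stromelysins lie to the left.

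The other genes of the pathway, among them ADAMTS-like and ADAM genes, activators, inhibitors, and substrates, had 29 tested in the lines. Of these, 21 had positive log2 fold changes, or 72.4% beside 49.8% of all genes, with a median of 0.54. At an adjusted p under 0.05 in edgeR, 3 rose and 3 fell, where 5.78% of all genes rose and 8.45% fell. Col2a1 is among the 3 that rose and among the 21. It reached the level of the filter in BNC lines alone and so had to differ. The substrate gene Col2a1, a fibrillar collagen, was at 65.5, 73.9, and 201 CPM in the BNC lines and had no more than 2 counts in any NC line. With the floor of 3 counts, the mean of the BNC lines exceeded the NC lines at least 618.5-fold, and at least 379.6-fold without JB97. Reck, a membrane-anchored inhibitor of MMPs, was at 2.52, 2.53, and 3.61 CPM in JB81, JB91, and JB97 and at 13.4, 10.5, and 14.1 CPM in JB84, JB87, and JB93. It was lower in each BNC line, with a log2 fold change of -2.19 (SE 0.27, adjusted p = 0.012, edgeR). Adamtsl4, an ADAMTS-like protein without protease activity, was at 98.3 to 135 CPM in BNC lines and at 10.6 to 31.4 CPM in NC lines (log2 fold change 2.66, SE 0.47, adjusted p = 0.0227, edgeR). Adam9, a membrane-bound sheddase, was at 516.5 to 568.1 CPM in BNC lines and at 727.9 to 1152 CPM in NC lines (log2 fold change -0.96, SE 0.22, adjusted p = 0.0404, edgeR).

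The comparison of tumors with the 6 lines asks how the proteases in tumor tissue, which holds other cells, compare with those of tumor cells in culture. Of the 39 members, 35 could be tested among 15675 genes, and Mmp7, Mmp24, Adamts17, and Adamts18 could not. At an adjusted p under 0.01 with more than 2-fold change, edgeR called 17 members, or 48.6% of those tested against a background of 39.7%. Of these, 16 rose in tumors (background 28%) and 1, Adamts1, fell against the mean of both line groups (background 11.7%). Mmp9, Mmp12, Adamts8, and Adamts19 reached the level of the filter in tumors alone and so had to differ. Of the 31 members that also reached it in a line, 13 were called, or 41.9%, where the background over genes at that level in a line was 32.1%. DESeq2 called 21 members, all higher, beside 44.1% of all genes. Tumors and lines did not overlap for 9 members (background 25.4%), and in all 9 the tumors were above the lines (background 16.3%). These 9 hold Mmp9, Mmp12, and Adamts8. Among the 31 members at the level of the filter in a line, 6 did not overlap, or 19.4%, where the background over genes at that level was 19.8%. The median log2 fold change was 2.04 over these 31 members and 0.09 over all genes at that level. All tumor headers open with 1 number that no line carries, so whatever that number marks cannot be told apart from tissue. A change in the share of a cell type and a change in RNA per cell cannot be told apart in these bulk libraries either.

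The tumors differed from the lines in genes of other cell types. Ptprc, the leukocyte gene, was at 77.9 to 230.3 CPM in tumors and at 0.0769 CPM or less in the lines. All 10 macrophage genes were above 3 counts in every tumor, with sums from 2195 (B28) to 9799 CPM (B14) and a median of 6081 CPM, Lyz2 being the most abundant. The 6 fibroblast genes, led by Col3a1, summed to 6524 to 28180 CPM in tumors and 1514 to 6565 CPM in the lines. Of these, Col1a1 and Pdgfra overlapped between tumors and lines, and Col3a1, Thy1, Dcn, and Lum were higher in every tumor. Dcn and Lum were at most 50.2 and 0.0421 CPM in the lines and at least at 169.5 and 86.7 CPM in each tumor. The 6 neutrophil genes, led by S100a9, had a median of 52.5 CPM and reached 4806 CPM in B27. Sums of 5 striated muscle genes ran from 114 CPM (B14) to 31070 CPM (B1). The part of these cell types in the differences below was not tested.

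Among the collagen- and gelatin-cutting enzymes the difference from the lines was widest for Mmp9, the gelatinase known from neutrophils and macrophages. It was at 14.4 CPM in the lowest tumor (B45), 76.5 CPM in the median, and 714 CPM in the highest (B27), and had at most 3 counts in every line. Against that floor the mean of the tumors was higher by at least 1251-fold, and by at least 846.7-fold without B27, and single tumors such as B45 were well under that mean. The other gelatinase, Mmp2, made mainly by fibroblasts and other mesenchymal cells, was at 327 CPM (B1) to 1268 CPM (B27) with a median of 557 CPM, and at 0.632 to 166.4 CPM in the lines. Each tumor exceeded each line, and the log2 fold change was 3.84 (SE 1.05, adjusted p = 0.00581, edgeR). This call was lost without JB84 (0.0176), without JB93 (0.0179), with the close pairs summed (0.0173), and against NC or BNC lines alone (adjusted p = 0.0601 and 0.0241, edgeR), and the log2 fold change was 6.63 without JB97. The collagenase Mmp8, known from neutrophils, was at 0.178, 1.61, and 110 CPM in the lowest, median, and highest tumor and at 0.672 CPM or less in the lines. Its groups overlapped (log2 fold change 6.26, SE 1.73, adjusted p = 0.00621, edgeR). The size rests on B27, since the other tumors were at 5.19 CPM or less and the log2 fold change was 3.44 without B27 (adjusted p = 0.00741, edgeR). The call was lost when any 1 line was left out (adjusted p = 0.0143 to 0.0222, edgeR) or the close pairs were summed (0.0314). Mmp13 was at 0.533, 24.3, and 272.9 CPM and did not pass the threshold of 0.01 (adjusted p = 0.0213, edgeR).

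The metalloelastase Mmp12, known from macrophages, was at 0.74 CPM (B13), 5.87 CPM, and 499.9 CPM (B27) in the lowest, median, and highest tumor and had at most 3 counts in every line. By the mean it was at least 386.9-fold higher in tumors, a bound set by B27, and at least 42.9-fold without that tumor. The stromelysin Mmp3 was at 12.3 CPM (B14), 42.2 CPM, and 401.3 CPM (B27), and the highest line was at 11.2 CPM. All tumors were above all lines (adjusted p = 0.000114, edgeR), but the call rests on the BNC lines, which had at most 2 counts, so that the fitted fold change is not given. Against NC lines alone the log2 fold change of Mmp3 was 4.35 and the call was lost (adjusted p = 0.0163, edgeR). Mmp10 ranged from 0 CPM in B45 to 98.2 CPM in B27 with a median of 2.01 CPM (adjusted p = 0.021, edgeR). Mmp11 was at 13.9 to 36.9 CPM in tumors, between the low BNC lines and the pair JB84 and JB93 (adjusted p = 0.0587, edgeR). The matrilysin Mmp7, known from epithelia, was at 0.325 CPM in B19 and 0.0992 CPM in B2 and had no reads in the other 13 libraries.

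Genes of the chromosome 9 cluster ranked the tumors differently. In B27, Mmp12, Mmp3, Mmp13, Mmp8, and Mmp10 were all at their highest, with 499.9, 401.3, 272.9, 110, and 98.2 CPM. In B19, Mmp13 and Mmp3 were at 131 and 86.2 CPM, whereas Mmp12 and Mmp10 were at 1.82 and 0.325 CPM. In B28 and library 22, Mmp10 was at 45.6 and 27.9 CPM, against 2.59 CPM or less in the tumors other than these and B27. Mmp9, on chromosome 2, was also highest in B27, which held the largest sums of neutrophil and endothelial markers (4806 and 699.4 CPM). Of these lists, Mpo was highest in B19, and Tek was at 14.8 CPM in B27 against 39.4 CPM in B2. The macrophage genes went both ways, with Cd14 at 1976 CPM in B27 and at most 175.8 CPM elsewhere, whereas Adgre1 was lowest there (46.4 CPM). The T cell sum was also largest there (238.3 CPM), carried by Cd3g, Cd3e, and Cd3d, whereas Cd8a was at 1.58 CPM in B27, below the median tumor of 2.85 CPM, and Cd2 was highest in B2.

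**Figure D4:**
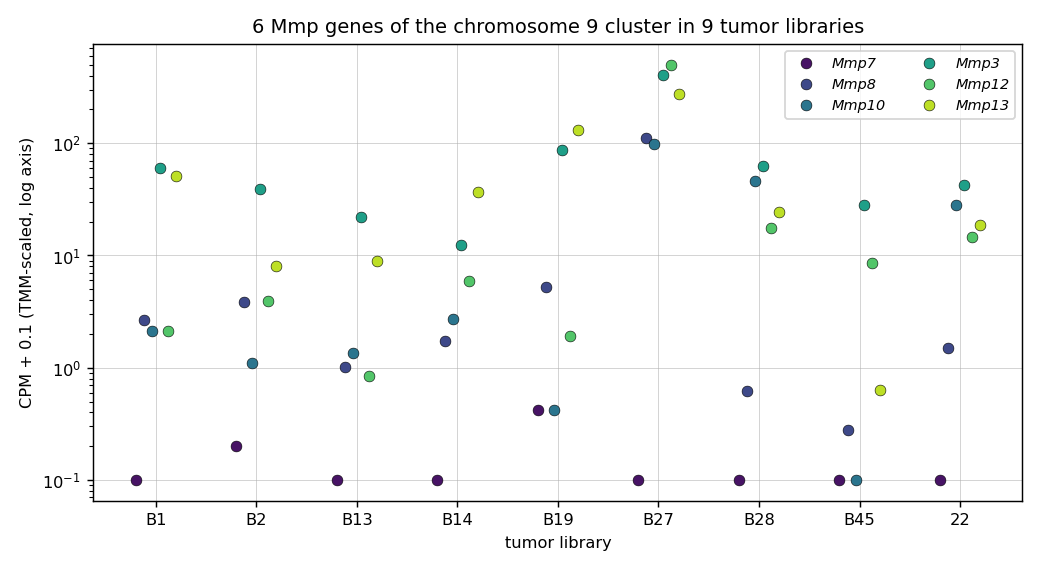
Level of 6 Mmp genes of the chromosome 9 cluster in 9 tumor libraries, as TMM-scaled CPM plus 0.1 on a log axis, 1 color for each gene. Mmp12 and Mmp3 reach 499.9 and 401.3 CPM in B27, and Mmp7 stays at or near 0 throughout.

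Of the membrane-type genes, none of the 4 tested was called (background 39.7%). Mmp14 was at 137 CPM (B1), 532.2 CPM, and 1453 CPM (B14) in the lowest, median, and highest tumor, overlapping the 101 to 408 CPM of the lines (log2 fold change 1.22, SE 0.49, adjusted p = 0.0432, edgeR). Mmp15, Mmp16, and Mmp17 had adjusted p values of 0.103, 0.199, and 0.822 from edgeR. Mmp15, at 3.29 to 35.9 CPM in tumors, and Mmp16, at 0.624 to 17.3 CPM, also overlapped the lines. Of the other MMPs, Mmp19 and Mmp23 rose in tumors, by 2.04 (SE 0.55, adjusted p = 0.00508, edgeR) and 1.07 (SE 0.28, adjusted p = 0.00387, edgeR) on the log2 scale. Mmp23 was at 52.4 to 139.6 CPM in tumors and at 22.2 to 117 CPM in the lines, where JB81 and JB91 were close to the median tumor of 118 CPM. The Mmp23 call rests on the NC lines, since against BNC lines alone the log2 fold change was 0.13 (adjusted p = 0.767, edgeR). It was also lost with pairs summed (0.0212) and without JB84, JB93, or JB97 (adjusted p = 0.0133, 0.0127, and 0.012, edgeR). The same held without TMM (0.0136) and without B1 and B2 together (0.0118). Against BNC lines alone Mmp19 had a log2 fold change of 1.08 (adjusted p = 0.193, edgeR). Its call was also lost with pairs summed (0.0164), without TMM (0.0121), and without JB84 or JB87 (0.0106 and 0.0136). Mmp19 shares 22.3% of its exon length with Tmem198b on the opposite strand, which was at up to 23.8 CPM in the lines and 102.3 CPM over all libraries, so that without a known strand setting their reads cannot be told apart. Mmp28 did not pass (adjusted p = 0.646, edgeR).

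Of the inhibitors, Timp1 was called by both tools and Timp4 by DESeq2. It was at 39.1 CPM (B45), 419.5 CPM, and 2441 CPM (B27) in the lowest, median, and highest tumor, against 68.3 to 133.6 CPM in the lines. Of the 9 tumors, B45 was under all lines and the others were above all of them, and the log2 fold change was 2.85 (SE 0.66, adjusted p = 0.00192, edgeR). The Timp1 call was lost with the close pairs summed (log2 fold change 2.75, adjusted p = 0.0164, edgeR) and against NC or BNC lines alone (adjusted p = 0.0126 and 0.022, edgeR), with the tumors higher in each. Timp2 was at 450.4 CPM (B1), 646 CPM, and 1512 CPM (B14), below or within the range of the lines of 830.3 to 1870 CPM (log2 fold change -0.65, SE 0.28, adjusted p = 0.0515, edgeR). Timp3 was at 288.7 CPM (B28), 606.7 CPM, and 1568 CPM (B14), around the 364.9 to 746.3 CPM of the lines (adjusted p = 0.335, edgeR). Timp4 was at 0.0435 CPM (B28), 0.683 CPM, and 8.57 CPM (B45) against 0 to 1.18 CPM in the lines, and the groups overlapped. Its log2 fold change was 4.13 by edgeR (adjusted p = 0.0133), above 0.01, and 4.35 by DESeq2 (adjusted p = 0.000561). Against BNC lines alone it was 1.65 (adjusted p = 0.332, edgeR). Per kilobase, the median tumor had Timp1 at 472.4, Timp2 at 165.8, and Timp3 at 74.5 CPM per kilobase, so that Timp1 was the highest inhibitor there. In B45, however, Timp1 was at 39.1 CPM and Timp2 at 908.1 CPM.

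Adamts1 was the member that edgeR called lower. It was at 32.5 CPM (library 22), 62.1 CPM, and 107 CPM (B27) in the lowest, median, and highest tumor, under every BNC line (502.9 CPM or more). The NC lines were at 33.1 to 180.6 CPM, and all tumors but library 22 were within that range. The log2 fold change against the mean of both line groups was -2.01 (SE 0.38, adjusted p = 0.000454, edgeR). Against NC lines alone it was -0.34 (adjusted p = 0.57, edgeR), so the call rests on the BNC lines, and DESeq2 gave Adamts1 no adjusted p. Its neighbor Adamts5 was at 10.5 to 124 CPM in tumors, lower without passing 0.01 (log2 fold change -1.36, SE 0.55, adjusted p = 0.0444, edgeR). Adamts4 was at 3.91 CPM (B45), 24.1 CPM, and 101 CPM (B14) and rose by 3.07 on the log2 scale (SE 0.74, adjusted p = 0.00249, edgeR). Against BNC lines alone it was 1.42 (adjusted p = 0.185, edgeR), and with pairs summed the call was lost (0.0162). Adamts9 and Adamts20 did not pass (adjusted p = 0.506 and 0.289, edgeR).

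Of the Adamts genes with little or no RNA in the lines, Adamts15, Adamts16, and Adamts8 were read in every tumor, Adamts19 in 7 of 9, and Adamts17 and Adamts18 stayed low. Adamts15, a versican-cutting protease, was at 18.1 CPM (B1), 45 CPM, and 199.3 CPM (B13) in the lowest, median, and highest tumor and at 0.915 CPM or less in the lines. All tumors were above all lines (adjusted p = 3.67e-06, edgeR). Its neighbor on chromosome 9, Adamts8, was at 1.19 CPM (B14), 4.52 CPM, and 24.1 CPM (B45), with 0 counts in all 6 lines. The mean of the tumors exceeded the floor at least 42.4-fold, and at least 28.8-fold without B45. Adamts16 was at 5.95 CPM (B45), 21.4 CPM, and 99.2 CPM (B14) in tumors and at 0.798 CPM or less in the lines (adjusted p = 1.04e-05, edgeR). The NC lines had 0 counts of Adamts15 and Adamts16, so that their fitted fold changes depend on the prior count and are not given.

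Adamts19 was at 0 CPM in B1 and B28, 1.33 CPM in the median tumor, and 14.7 CPM in B13, with 0 counts in the lines, and was at least 16.6-fold higher by the mean. This bound is set by B13, and it was at least 7.16-fold without that tumor. Of the others, Adamts3, Adamts7, and Adamts10 rose by 2.71, 3.01, and 2.06 on the log2 scale (SE 0.61, 0.56, and 0.36), with adjusted p values of 0.00162, 0.000391, and 0.00026 from edgeR. Against BNC lines alone Adamts3 had a log2 fold change of 0.26 (adjusted p = 0.762, edgeR). Adamts2, Adamts6, Adamts12, and Adamts14 were not called, with adjusted p values of 0.0557, 0.017, 0.0309, and 0.567 from edgeR. Adamts17 did not exceed 1.34 CPM and Adamts18 did not exceed 0.574 CPM in any tumor.

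**Figure D5:**
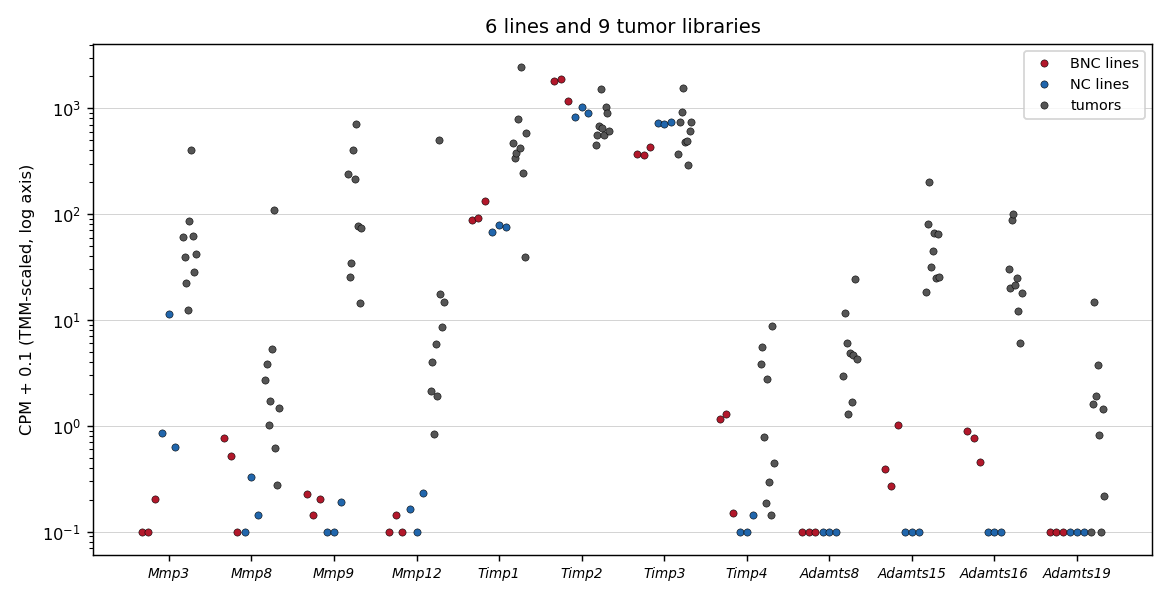
Level of 12 members in 3 BNC lines (red), 3 NC lines (blue), and 9 tumors (gray), as TMM-scaled CPM plus 0.1 on a log axis, so that points at 0.1 are libraries with 0 counts. Shown are the 8 members with the largest log2 fold changes among those called in tumors and the 4 Timp genes. Mmp9, Mmp3, Mmp12, Adamts8, Adamts15, and Adamts16 have every tumor above every line.

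Against the other genes of the pathway, of which 39 were tested in tumors, 18 were called higher and 2 lower, or 46.2% and 5.13%, beside 28% and 11.7% of all genes. The 18 hold Mmp25, Mmp27, Plg, A2m, Tfpi2, Acan, Adamtsl2, and Papln, which had at most 5 counts in every line. They also hold Comp, which had at most 10 counts in any line and did not reach the level of the filter there. All of these genes entered the test through the tumors alone and so had to differ, and the share of 46.2% is a description. The 4 with the smallest p were the protease inhibitor Serpine2, the ADAMTS-like gene Adamtsl1, and the matrix protein genes Comp and Thbs2. Since Comp had to differ, its rank, its fold change, and its separation from the lines are descriptions. Serpine2 was at 9.01 to 31.4 CPM in the lines and at 39.6 CPM, 101 CPM, and 163 CPM in the lowest, median, and highest tumor (log2 fold change 2.80, SE 0.33, adjusted p = 7.89e-06, edgeR). Adamtsl1 rose by 4.14 on the log2 scale (SE 0.52), Comp by 6.90 (SE 0.98), and Thbs2 by 8.03 (SE 1.17). All tumors were above all lines for each of these 4 genes.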

How the data were processed

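RNA from 6 lines and 9 tumors was selected for poly-A, sequenced as single-end reads, aligned to mm10 with TopHat2 2.0.12, and counted per gene with HTSeq by the authors, whose deposited table holds raw counts. The strand setting of the counting is not given in the sources used here. A deposited DNA sequencing table with 14 per-sample columns was not used. Genes were filtered with filterByExpr (minimum count 10). The main test was edgeR 4.0.16 in R 4.3.3 (TMM scaling, quasi-likelihood F test, Benjamini-Hochberg adjustment over all genes tested), with no covariate, for BNC against NC lines and for tumors against the mean of both line groups. Calls required an adjusted p under 0.01 and more than 2-fold change, and an adjusted p under 0.05 is also given. DESeq2 1.42.0 was an alternative. Tested on simulated counts with the same library sizes, the BNC against NC fit called 26% of 4-fold and 79% of 16-fold changes among 12376 genes. The simulated libraries were drawn independently, without close pairs like those of the lines, so these shares need not hold for the 6 lines.

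Values in every library are given for members past an adjusted p under 0.05 or called by DESeq2 in the lines, the Timp genes, the 8 highest per kilobase in the lines, and the 8 largest changes among calls in tumors. Groups over 5 samples are given as lowest, median, and highest, and other members are given more briefly. Of the other pathway genes, the 4 with the smallest p are named. Members and lists were chosen with earlier results of these data known. The labels do not say whether lines came from separate mice, so p-values measure the spread between these samples. Alternatives covered the tool, scaling, filters, summing close pairs, the number that opens a column header, replicate number, and leaving out each library.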

Additional observations from a re-analysis of the deposited data

Results flagged for a closer look

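Of 38 members examined over the 9 tumors, 17 had a highest tumor whose gap to the next, divided by the whole range, was above the 95% critical value of Dixon's test for 9 samples. That is 44.7% of the members, where 20.3% of all genes tested and 26.2% of all genes above 3 counts in a tumor met the same rule. Chance flags at most about 1 in 20 groups of normally distributed values, which these are not, and members that move together are not independent. Of the 17, 7 were in tumor B27 (18.4% of the members, and 4.87% of genes tested), which also held the largest sums of neutrophil and endothelial markers. They were Mmp12 at 499.9 CPM (other tumors at most 17.5 CPM), Mmp8 at 110.1 CPM (at most 5.19 CPM), Mmp3 at 401.3 CPM (at most 86.2 CPM), Mmp10 at 98.18 CPM (at most 45.6 CPM), Mmp13 at 272.9 CPM (at most 131 CPM), Timp1 at 2441 CPM (at most 787.6 CPM), and Adamts9 at 113.2 CPM (at most 43.7 CPM). The part of those cells in the B27 values was not tested.

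In B14, Mmp16 stood apart at 17.26 CPM, Mmp17 at 38.08 CPM, and Timp3 at 1568 CPM, with at most 8.19, 14.7, and 926.4 CPM in other tumors. In B28, Mmp28 was at 28.52 CPM, Adamts6 at 45.26 CPM, and Adamts14 at 147.8 CPM, with at most 11.5, 18.6, and 73.5 CPM elsewhere. In B13, Adamts15 was at 199.3 CPM and Adamts19 at 14.74 CPM, with at most 79.9 and 3.63 CPM elsewhere. Adamts8 was at 24.13 CPM in B45, against at most 11.6 CPM elsewhere. Mmp7 was at 0.3246 CPM in B19, which is 5 counts.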

How the results depend on the processing

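In BNC against NC lines, 0 members were called by edgeR at an adjusted p under 0.01 and more than 2-fold, against 9 by DESeq2, 1 without TMM (Adamts14), 1 without the filter (Adamts14), 4 by DESeq2 with close pairs summed (Mmp3 among them), and 0 to 10 when each line was left out. Over all genes, 136 were called by edgeR, 1846 by DESeq2, 83 with at least 10 counts in every library, 1 with the header number as a covariate, 0 with close pairs summed, 536 by DESeq2 with pairs summed, and 0 to 2574 when each line was left out. Past an adjusted p under 0.05, the 8 members of the main test (1761 of all genes) became 14 by DESeq2 (3718 genes), 0 with pairs summed (0 genes), 5 by DESeq2 with pairs summed (872 genes), 2 with the header number as a covariate (Mmp16, Adamts14, and 272 genes), and 0 to 19 when each line was left out (15 to 6800 genes), 19 being without JB87. The study's supplement gives number 2 to both JB91 and JB97, whereas the sample labels number each BNC line separately. These numbers do not pair the lines. Correlations of deviations were 0.128 for JB81 with JB84, -0.087 for JB91 with JB87, and 0.101 for JB97 with JB87. With JB97 as number 3, its correlation with JB93 was -0.094. With the replicate block, 0 members passed 0.05 and 0 genes were called, and with JB97 as number 3 in the replicate block, 3 passed (Adamts1, Mmp16, Adamts14, and 464 genes). In tumors against lines, the 17 calls (39.7% of all genes) became 21 by DESeq2 (none lower, 44.1% of all genes). With pairs summed, 10 of 36 were called, beside 29.2% of all genes. Against NC or BNC lines alone it was 10 of 35 each, beside 25.9% and 32.4% of all genes. With pairs summed and against BNC lines alone, the share of members was thus under that of all genes. When each library was left out, 14 to 20 were called, beside 32.8% to 41.7% of all genes. Genes called fell from 6223 to 4064 against NC lines alone.

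Log2 fold changes of BNC over NC changed sign for Mmp2 without JB87 (1.33, and -6.57 without JB97, the range over lines left out) and for Adamts5 with the replicate block (-0.17), without JB93 (-0.01), and without JB97 (-0.85), which was at most 1.16, without JB87. Those of tumors over lines changed sign against NC lines alone for Mmp11 (-0.69), Mmp16 (0.33), Mmp28 (-0.80), and Timp3 (-0.076), against BNC lines alone for Mmp15 (-1.01) and Adamts14 (-0.71), and without B28 for Mmp28 (-0.37) and Adamts14 (-0.18), with at most 0.62 and 0.59 when any other library was left out. None of these passed a threshold in either setting. Of the 235 values recomputed for 16 named members in lines, 154 kept direction and side of the threshold, and of 593 for 27 in tumors, 542 did. The cause of these changes was not tested. The settings that combine DESeq2 with summed pairs, number JB97 as 3, or leave out B1 and B2 together were chosen after seeing the data. So were the bounds without a library.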
